A study of Mus musculus with 9 samples.

Results

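*C1qa*, *C1qb* and *C1qc* encode the A, B and C chains of complement C1q, and they were chosen by name as the full set of C1q subunit genes. All 3 were among the 689 genes of the deposited RNA-seq table. Each library came from the frozen hemibrain of 1 male C57BL/6J mouse that had been perfused with buffer after behavioural testing. Young control mice were 5 months old by the labels and came from JAX, aged control mice were 24 months old and came from NIA, and both groups ate control diet for 6 weeks. Aged repopulated mice, also 24 months old and from NIA, ate PLX5622 for 2 weeks and control diet for the next 4 weeks. PLX5622 inhibits CSF1R, the receptor whose signal microglia need to survive, and microglia return once the inhibitor is withdrawn. There were 3 mice in each group. Age and supplier cannot be told apart, the inhibitor reaches any cell that uses CSF1R, and repopulated young mice were not analysed here, so the effect of repopulation could be measured in aged mice only.

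C1q is the recognition molecule of the classical complement pathway. Its A, B and C chains, each with a collagen-like stalk and a globular head, assemble together into 1 protein, which binds immune complexes, dying cells and other targets and then starts the protease cascade that leads to C3. In the brain microglia are the main source of C1q, and the protein is known for tagging synapses that microglia later remove.

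The subunit genes lie side by side on chromosome 4 of GRCm38, the assembly also called mm10, all on the minus strand. In the GENCODE M21 annotation *C1qb* (ENSMUSG00000036905.8) runs from 136880129 to 136886187, *C1qc* (ENSMUSG00000036896.5) from 136889804 to 136893065 and *C1qa* (ENSMUSG00000036887.5) from 136895917 to 136898803. The cluster spans 18675 bases and holds 0 other annotated genes, with gaps of 3616 and 2851 bases between neighbours. Each gene has 3 exons. The longest transcripts measure 1088 bases for *C1qb*, 1203 for *C1qc* and 1040 for *C1qa*, whereas the median gene of the table has 3178.5 bases.

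The sequence directly upstream of a start site is shown because the subunits lie in 1 cluster and moved together in the comparisons that follow. Both windows come from RefSeq promoters on GRCm38.p6, are read 5′ to 3′ on the minus strand and end upstream of the annotated starts. Capitals mark GAGGAA, the core bound by PU.1, the ETS-family factor on which microglia depend, or its reverse complement.
C1qb, chr4:136886201-136886450: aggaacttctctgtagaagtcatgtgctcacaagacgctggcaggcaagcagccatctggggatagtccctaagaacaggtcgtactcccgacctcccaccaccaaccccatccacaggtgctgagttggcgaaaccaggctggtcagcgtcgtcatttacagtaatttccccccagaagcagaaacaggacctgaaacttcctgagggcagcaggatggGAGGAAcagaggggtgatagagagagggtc
C1qc, chr4:136893066-136893164: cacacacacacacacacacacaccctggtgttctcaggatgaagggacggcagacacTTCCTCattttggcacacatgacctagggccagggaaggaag
The *C1qb* window of 250 bases held 1 match to GAGGAA, as did 23.1% of 27025 promoters over the same length. The *C1qc* window of 99 bases held 1 match, on the opposite strand, and 9.85% of promoters held a match on either strand over that length. This window ends next to the GENCODE start (136893065), farther upstream than the RefSeq start (136892914). Shares for the *C1qc* length come from the 99 bases of each promoter farthest upstream of its RefSeq start, so they do not cover the bases next to that start. TATAAA (the TATA box), TGANTCA (the AP-1 site), GGGCGG (the GC box) and the ETS-IRF composite motif, which can overlap GAGGAA, were searched on both strands, and none was in either window. For the *C1qb* length these motifs were found in 13%, 6.87%, 32.9% and 2.38% of promoters. For the *C1qc* length the shares were 5.34%, 2.53%, 10.1% and 0.921%. Such matches describe the letters of the window and do not show that a factor binds. *C1qa* was not matched.

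Levels are given in RPKM, read counts scaled to transcript length and to library size, which allows comparison between genes of different length. The table holds only genes that the authors' model of age and microglial state had called on these same libraries, so presence in it is a selection and not independent evidence of a change. Over the 689 genes, a library summed to between 22242 and 22330 RPKM in young control, 23629 and 24853 in aged control and 22861 and 23632 in aged repopulated mice. Read depth is unknown. The median gene was 0.10 higher in aged control than in young control on the log2(RPKM + 1) scale, and the difference between library medians was 0.11. Fold changes and tests below are on that log2 scale, from limma with the 9 libraries fitted together and p-values adjusted over all 689 genes by Benjamini-Hochberg.

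All 3 subunits were higher in aged control than in young control brains, by between 1.74-fold and 1.92-fold in mean RPKM. *C1qa*, the A chain, measured 17.9, 18.4 and 19.2 RPKM in the young control libraries (P07, P08 and P09) and 36.8, 39.1 and 31.0 in the aged control libraries (P10, P11 and P12). For *C1qb*, the B chain, the levels were 17.1, 20.8 and 20.9 RPKM in young and 32.7, 40.1 and 32.6 in aged control libraries. *C1qc*, the C chain, was measured at 17.97, 16.4 and 17.8 RPKM in young and at 28.9, 33.6 and 28.2 in aged control libraries. Every aged control library lay above every young control library for each subunit, a separation in that direction that 50.7% of the table's genes also showed. In bulk tissue, more microglia and more C1q RNA per cell cannot be told apart.

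The group means were 18.5 ± 0.61 RPKM in young and 35.6 ± 4.19 in aged control mice for *C1qa* (SD, n = 3). They were 19.6 ± 2.15 and 35.1 ± 4.26 for *C1qb*, and 17.4 ± 0.90 and 30.2 ± 2.96 for *C1qc*. On the log2 scale *C1qa* rose by 0.90 (SE 0.17, 95% interval 0.53 to 1.28, adjusted p = 0.0071 by limma). *C1qb* rose by 0.81 (SE 0.15, interval 0.47 to 1.15, adjusted p = 0.0071 by limma), and *C1qc* by 0.76 (SE 0.13, interval 0.47 to 1.05, adjusted p = 0.0066 by limma). Thus 3 of 3 subunits were called higher, against 46.3% of the table's genes. In size the rises ranked 7, 8 and 13 among the 689 genes. With each library centred on its own median they were 0.79, 0.70 and 0.65, all still called, although the split of the table's calls turned from 319 higher and 114 lower to 78 higher and 215 lower. With adjustment over all the genes the study tested, from which the table was selected, the adjusted p was 0.063, 0.063 and 0.059 by limma, and none passed.

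**Figure D1:**
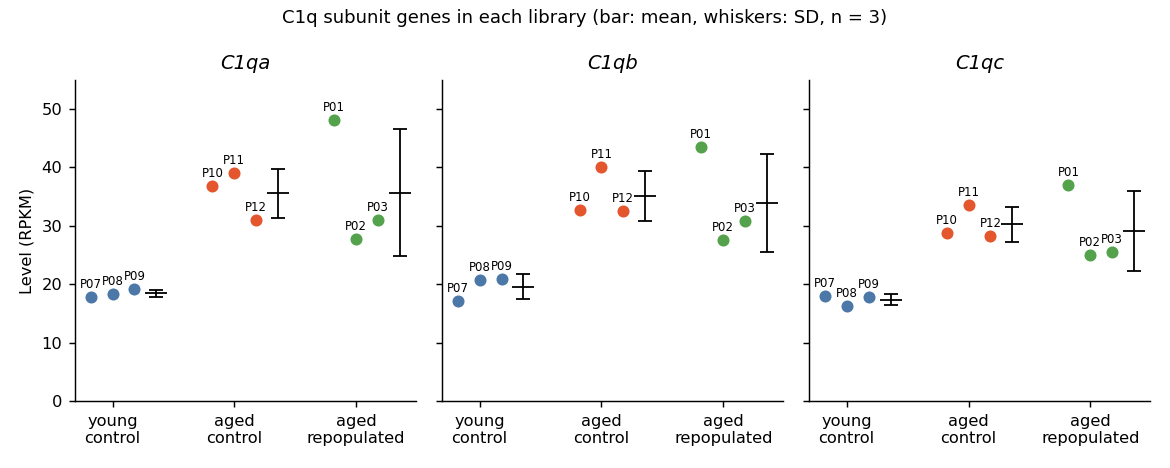
Level of each C1q subunit gene in RPKM (vertical axis) in the 9 libraries, grouped as young control, aged control and aged repopulated, with points for libraries and, beside them, a bar for the mean and whiskers for the SD (n = 3). Young control points lie between 16.4 and 20.9 RPKM, below every aged point, and P01 lies at the top of each panel.

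In aged repopulated mice the mean levels of the subunits lay near those of aged control mice, but the 3 repopulated brains differed widely. *C1qa* was at 48.1, 27.8 and 31.1 RPKM in the aged repopulated libraries (P01, P02 and P03), with a mean of 35.7 ± 10.9 (SD, n = 3). *C1qb* was at 43.5, 27.6 and 30.8 RPKM (33.96 ± 8.39). *C1qc* was at 36.98, 24.98 and 25.5 RPKM (29.1 ± 6.79). P01 exceeded every aged control library for all 3 subunits, P02 lay below every aged control library for all 3, and P03 lay below them for *C1qb* and *C1qc* but among them for *C1qa*. The groups therefore overlapped for each subunit.

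The log2 difference, aged repopulated minus aged control, was -0.03 for *C1qa* (SE 0.17, adjusted p = 0.893 by limma). It was -0.07 for *C1qb* (SE 0.15, adjusted p = 0.731 by limma) and -0.07 for *C1qc* (SE 0.13, adjusted p = 0.676 by limma). Of the 3 subunits, 0 passed the test, where 8.71% of the table's genes were called on adjusted p. Their unadjusted p by limma was 0.862, 0.666 and 0.602. The 95% intervals still allow repopulated levels of 0.756 to 1.27 times the aged control level for *C1qa*, 0.754 to 1.21 for *C1qb* and 0.778 to 1.17 for *C1qc*, so they do not show that the levels were alike. These intervals rest on 1 spread shared by the 3 groups. For *C1qa* the log2 SD was 0.41 in repopulated, 0.17 in aged control and 0.045 in young control libraries. The young libraries thus narrow the intervals, which may be too narrow for this comparison. The differences turn on single libraries, P01 among them. Without P01 the differences were -0.26, -0.25 and -0.25, with adjusted p of 0.091, 0.132 and 0.073 by limma, and 0 passed. Leaving out a young control library cannot change these differences. As each of the 6 aged libraries was left out in turn, the sign reversed in 3, 2 and 3 runs. The differences then reached up to 0.12, 0.064 and 0.025.

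Compared with young control mice, 3 of 3 subunits were higher in the aged repopulated brains, against 4.21% of the table's genes called in that direction. Each repopulated library lay above every young control library for all 3 subunits, which 31.5% of the table's genes also showed. The ratios of mean RPKM were 1.93 for *C1qa*, 1.73 for *C1qb* and 1.68 for *C1qc*. In log2 the differences were 0.87 (SE 0.17, interval 0.50 to 1.25, adjusted p = 0.0181 by limma), 0.74 (SE 0.15, interval 0.40 to 1.08, adjusted p = 0.0212) and 0.69 (SE 0.13, interval 0.40 to 0.98, adjusted p = 0.0181). They ranked 7, 11 and 13 in absolute size among the 689 genes. This comparison uses the same young control libraries as the comparison with age. Without P01 the differences were 0.64, 0.55 and 0.51, all still called. Leaving out a young control library ended calls. Without P07 the adjusted p was 0.057 for *C1qa* and 0.073 for *C1qb*, without P08 it was 0.066, 0.066 and 0.068 for the 3 subunits, and without P09 it was 0.057, 0.061 and 0.057. With adjustment over all genes the study tested, untransformed RPKM or no variance moderation, the adjusted p lay between 0.093 and 0.189, and none passed.

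**Figure D2:**
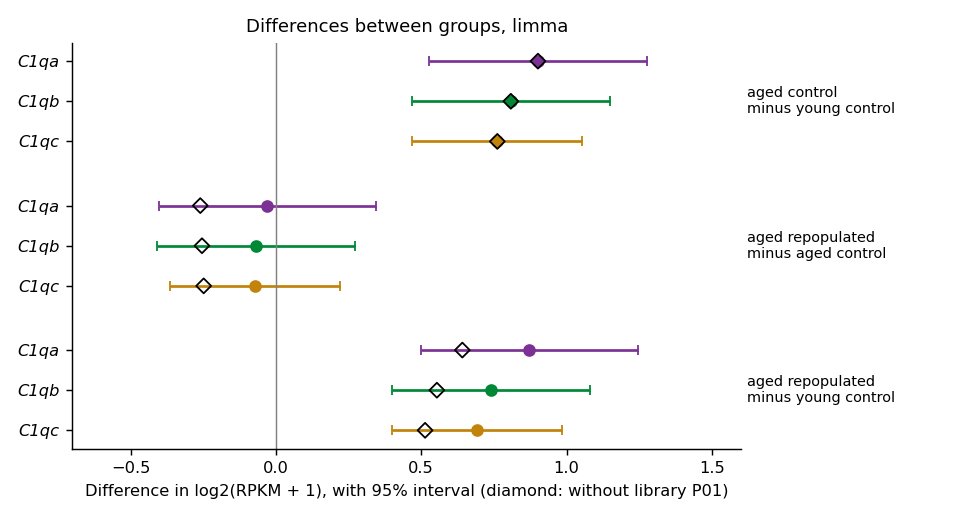
Log2 difference in log2(RPKM + 1) between groups (horizontal axis) for each C1q subunit in the 3 comparisons, with filled points for the estimates, bars for the 95% intervals from limma with n = 3 libraries per group, and open diamonds for the estimates without library P01. The intervals lie above 0 for both comparisons with young control and span 0 for aged repopulated minus aged control.

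The spread between repopulated brains was itself among the widest in the table. The SD of *C1qa* over the 3 repopulated libraries was 0.41 on the log2 scale, that of *C1qb* 0.33 and that of *C1qc* 0.31, ranks 2, 6 and 11 of 689, where the median gene had 0.047. In aged control libraries the SDs were 0.17, 0.17 and 0.13 (median gene 0.058), and in young control libraries 0.045, 0.155 and 0.071 (median gene 0.038). The spread between groups was not tested. Because limma used 1 spread for all groups, its SEs may be too small where repopulated libraries enter and too large for aged against young control. In RPKM, P01 stood at 1.35, 1.24 and 1.22 times the aged control mean for *C1qa*, *C1qb* and *C1qc*, whereas P02 stood at 0.782, 0.786 and 0.826 times and P03 at 0.874, 0.877 and 0.842 times.

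P01 was the highest of all 9 libraries for 3 of 3 subunits, as it was for 74 of the 689 genes (10.7%). It exceeded the mean of P02 and P03 by 0.69, 0.56 and 0.53 on the log2 scale, ranks 2, 6 and 10 in the table, while the median gene differed by 0.007. Other microglial genes moved with it. Of 38 genes listed as microglial markers, apart from C1q, 7 were in the table, and P01 was the highest of the 9 libraries for 7 of 7. Their summed level was 273 RPKM in P01, within a range of 208 to 273 in repopulated libraries, 207 to 239 in aged control and 167 to 171 in young control libraries. The part of these markers in the C1q values was not tested.

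**Figure D3:**
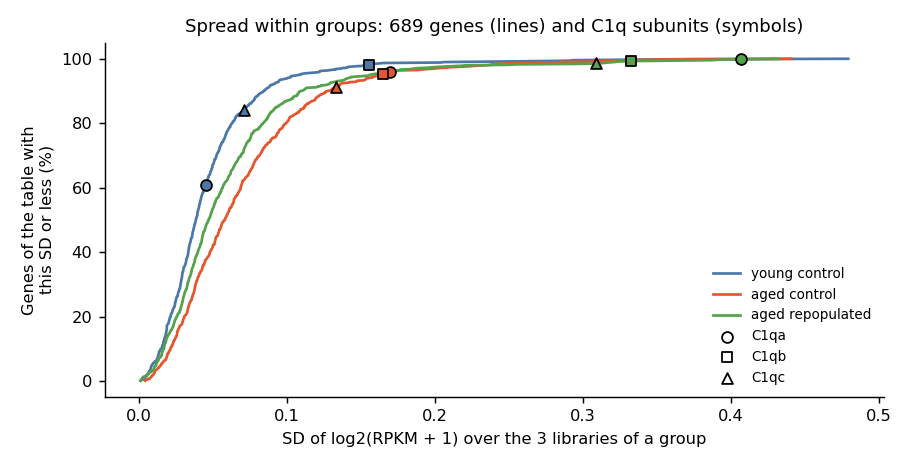
Percent of the 689 genes with a given SD or less (vertical axis) against the SD of log2(RPKM + 1) over the 3 libraries of a group (horizontal axis), with a line for each of the 3 groups and symbols for the C1q subunits. In repopulated mice the subunits stand at 0.31 to 0.41, at the top end of the line, and in aged control mice at 0.13 to 0.17.

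The subunits kept nearly equal proportions. *C1qa* made up 33.3% of the summed C1q RPKM in young control, 35.2% in aged control and 35.9% in aged repopulated mice, *C1qb* 35.3%, 34.8% and 34.5%, and *C1qc* 31.4%, 30.0% and 29.7%. The summed C1q level was 55.5 ± 2.43, 101 ± 10.7 and 98.8 ± 26.0 RPKM in the same order of groups (SD, n = 3). Ratios within a library were compared between the 6 aged and 3 young libraries with a two-sided exact permutation test over 84 assignments, adjusted over 15 ratios. The log2 ratio of *C1qa* to *C1qb* was 0.11 higher in aged libraries (exact permutation p = 0.190, adjusted p = 0.317), that of *C1qa* to *C1qc* 0.16 higher (exact permutation p = 0.0595, adjusted p = 0.128), and that of *C1qb* to *C1qc* 0.05 higher (exact permutation p = 0.631, adjusted p = 0.676). None of these shifts in proportion passed the test.

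The 8 genes whose profile over the 9 libraries was most like that of C1q included microglial genes, MHC class I genes and interferon-induced genes. Likeness was the root mean square difference in log2(RPKM + 1), each gene taken relative to its young control mean, from the mean profile of the subunits. The nearest were *Tyrobp* (0.096), the DAP12 adaptor of microglial receptors, and *Ctss* (0.104), the lysosomal protease cathepsin S. *B2m* (0.131), *H2-K1* (0.176) and *H2-D1* (0.184) encode the light chain and 2 heavy chains of MHC class I. *Ifi27* (0.176) and *Ifitm3* (0.223) are interferon-induced genes, and *Ctsz* (0.209) encodes cathepsin Z. The subunits themselves lay at 0.088, 0.061 and 0.078, the median gene of the table at 0.63, and *Apod*, the next gene, at 0.227, close to the last of the 8.

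*Tyrobp* had means of 9.97 ± 0.84 RPKM in young control, 18.02 ± 2.23 in aged control and 19.7 ± 4.87 in aged repopulated mice (SD, n = 3). *Ctss* had 27.98 ± 0.094, 49.8 ± 4.02 and 54.96 ± 12.8, and *B2m* 69.4 ± 4.42, 120 ± 17.9 and 115 ± 24.97. Since the 8 were picked for a profile like that of C1q over the 9 libraries, their values with age and in P01 are a description. For both cathepsin S and *Tyrobp* the repopulated mean lay above the aged control mean, whereas for *C1qb* and *C1qc* it lay below. In log2 the difference was 0.12 for *Ctss* (SE 0.13, adjusted p = 0.472 by limma) and 0.10 for *Tyrobp* (SE 0.14, adjusted p = 0.583 by limma). None of these genes was called in that comparison, so opposite directions are not shown.

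**Figure D4:**
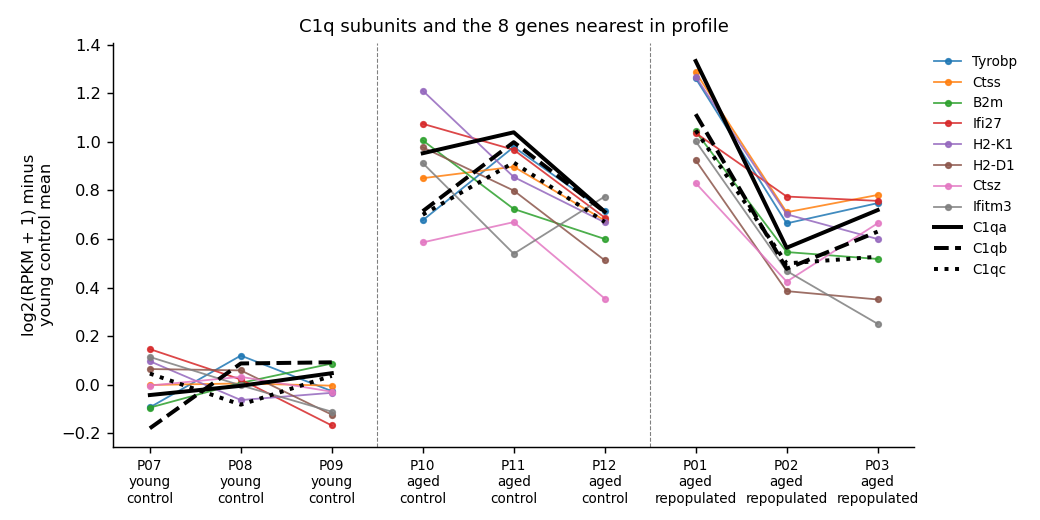
Difference in log2(RPKM + 1) from the young control mean (vertical axis) in each of the 9 libraries for the C1q subunits (black) and the 8 genes nearest in profile (colours), with lines joining the values of a gene within a group and no order implied among libraries. The aged control values lie above the young control values, and P01 lies above P02 and P03 for every gene drawn.

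C1q was higher in aged than in young brains also relative to the microglial genes *Csf1r*, the receptor that PLX5622 blocks, and *Laptm5*, a lysosomal membrane protein of blood and immune cells. *Csf1r* itself was at 15.1 ± 0.58 RPKM in young control, 16.1 ± 0.86 in aged control and 16.9 ± 1.77 in aged repopulated mice (SD, n = 3). Its difference with age was 0.09 in log2 (adjusted p = 0.270 by limma). The log2 ratio to *Csf1r* was higher in the 6 aged than in the 3 young libraries by 0.77 for *C1qa*, 0.66 for *C1qb* and 0.61 for *C1qc*. The log2 ratio to *Laptm5* was higher by 0.49, 0.37 and 0.33. Each of these 6 ratios had an exact permutation p of 0.0119, the smallest that 84 assignments allow, and an adjusted p of 0.0298. The 6 calls held without P02, P11 or P12 (adjusted p = 0.0446, exact permutation) and were lost without P01, P03 or P10 (adjusted p of 0.0536 to 0.134). They were also lost without any young control library, where the exact permutation p cannot go below 0.0357. The differences were then 0.54 to 0.79 for *Csf1r* and 0.30 to 0.51 for *Laptm5*. The pattern is not particular to these genes, since the ratio of C1q to any other gene of the table was higher without overlap in both aged groups for 97.1%, 96.4% and 96.2% of 686 genes.

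Relative to *Tyrobp* and *Ctss*, C1q was not called different between aged and young libraries, with aged control and aged repopulated mice pooled. The log2 ratio to *Tyrobp* differed by 0.05, -0.07 and -0.11 for *C1qa*, *C1qb* and *C1qc* between the 6 aged and 3 young libraries (adjusted p = 0.676, 0.491 and 0.357, exact permutation). The ratio to *Ctss* differed by 0.02, -0.09 and -0.14 (adjusted p = 0.786, 0.455 and 0.223, exact permutation). *Tyrobp* and *Ctss* were the genes nearest to C1q in profile over these same libraries, so small differences follow from that nearness. Aged control against young control alone was not tested. There the ratio to *Tyrobp* differed by 0.11, 0.02 and -0.03, and that to *Ctss* by 0.09, 0.0001 and -0.05.

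Between aged repopulated and aged control libraries the ratios of *C1qb* and *C1qc* to *Tyrobp* and *Ctss* did not overlap. This comparison was chosen after the values had been seen. Both reference genes are the nearest to C1q in profile over these libraries, so the ratios are a description. *C1qb* was 1.92 to 1.98 times *Tyrobp* in RPKM in aged control and 1.69 to 1.77 times in repopulated libraries, a log2 difference of -0.17. *C1qc* was 1.64 to 1.75 times *Tyrobp* in aged control and 1.46 to 1.53 times in repopulated libraries, again a difference of -0.17. For *Ctss* the differences were -0.19 for *C1qb* and -0.19 for *C1qc*, and for *Laptm5* the ratio of *C1qc* differed by -0.20. The separation from *Tyrobp* held in 5 of 5 other settings for both subunits. With GC correction the differences for *Ctss* were -0.11 for *C1qb* and -0.12 for *C1qc* and the groups overlapped. *C1qb* against *Ctss* overlapped with quantile normalization too, and *C1qc* against *Laptm5* kept its separation in 2 of 5 settings. With 3 against 3 libraries the exact permutation p of each was 0.10, the smallest possible, so none can pass a threshold of 0.05. The ratios of *C1qa* overlapped between the groups, by -0.13 for *Tyrobp* (exact permutation p = 0.3) and -0.15 for *Ctss* (exact permutation p = 0.2).

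Against the rest of the table the ratios separated in both directions for a few genes. Of 686 other genes in the table, the ratio was lower in repopulated than in aged control libraries without overlap for 3 with *C1qb* (0.437%), namely *Ctss*, *Tyrobp* and *Opalin*. It was so for 4 with *C1qc* (0.583%), the same genes and *Laptm5*, and for 1 with *C1qa* (0.146%), *Opalin*. The ratio was higher without overlap for 5, 6 and 6 of the 686 genes with *C1qa*, *C1qb* and *C1qc*. *Opalin*, a myelin protein and the 1 of 14 listed oligodendrocyte genes in the table, was at 10.9 to 13.2 RPKM in aged control and 12.1 to 19.2 in repopulated libraries, so it overlapped between the groups. *Opalin* was lower in aged than in young control mice by limma (log2 difference -0.53, adjusted p = 0.0133), and its difference of 0.37 in repopulated against aged control mice had an adjusted p of 0.0932. P01 was high for C1q and *Tyrobp* alike, and the log2 ratio of *C1qb* to *Tyrobp* ran only from 0.72 to 0.79 over the repopulated libraries.

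**Figure D5:**
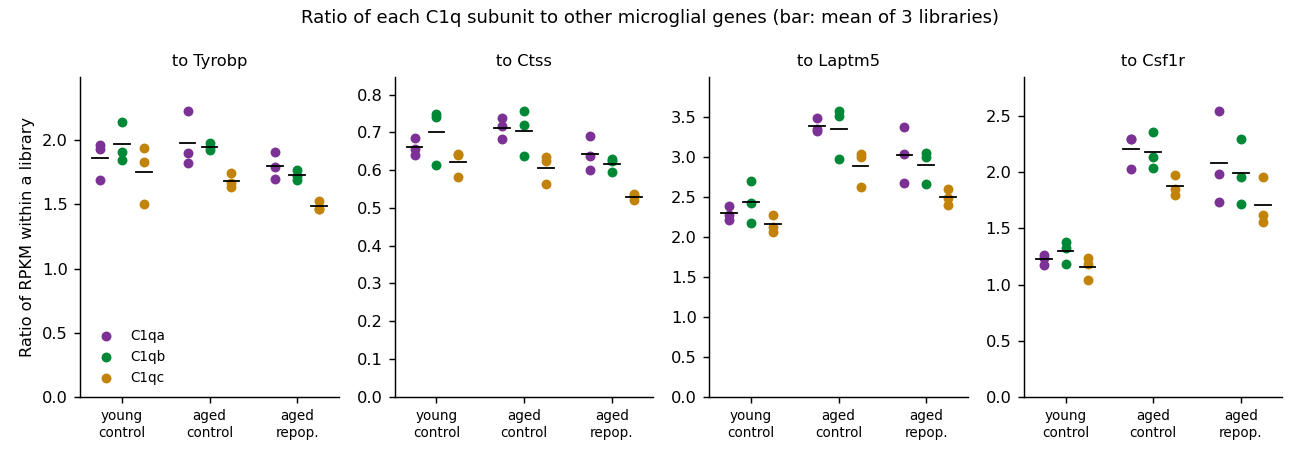
Ratio of the RPKM of each C1q subunit to that of *Tyrobp*, *Ctss*, *Laptm5* and *Csf1r* in the same library (vertical axes, from 0), by group, with points for libraries and bars for the mean of 3. Ratios to *Csf1r* and *Laptm5* are lowest in young control, and those of *C1qb* and *C1qc* to *Tyrobp* lie lower in every repopulated than in any aged control library.

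Of the 7 microglial genes in the table, 5 were called higher with age (46.3% of the table), among them *Tyrobp*, *Ctss*, *Ctsz* and *Laptm5*, 0 lower, and *Csf1r* and *Lgmn* were not called. Their median difference was 0.36 in log2, against 0.10 for all genes of the table. *Lgmn*, the protease legumain, was at 49.6 ± 1.09 RPKM in young and 51.3 ± 2.51 in aged control mice (SD, n = 3). For aged repopulated minus aged control, 0 of the 7 were called by limma, where 8.71% of the table was called on adjusted p. The lowest unadjusted p by limma was 0.289, for *Laptm5*. The 7 differences ran from 0.01 to 0.13 with a median of 0.10, and the median of the table was -0.05. Those of the 3 subunits, -0.03 to -0.07, lay near that median, and that of *C1qa* turned positive with untransformed RPKM, median centring, quantile normalization and the length and GC corrections. For aged repopulated minus young control, 5 were called higher (4.21% of the table) and the median was 0.46. With adjustment over all genes the study tested, 0 of the 7 were called with age and 1 in that last comparison. Of the whole table, 7 and 6 genes were then called, in either direction.

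Of 55 complement genes listed, the 3 C1q subunits were the only ones in the table. The other 52, among them proteases, C3, C4, regulators and receptors, were not analysed here. Few markers of other cell types were in the table. Of 15 listed genes of border macrophages and monocytes 0 were in the table, as were 0 of 7 red blood cell genes and 0 of 13 astrocyte genes. Summed neuronal markers (4 of 13) were at 676 to 700 RPKM in young control, 736 to 802 in aged control and 721 to 731 in repopulated libraries. With age *Snhg11*, *Gad1* and *Rbfox3* rose and *Map2* fell, and *Rbfox3*, named after its values were seen, was lower in repopulated than in aged control mice. Summed endothelial and pericyte markers (3 of 12) were at 55.9 to 56.1, 46.6 to 53.7 and 41.9 to 51.5 RPKM. With age *Ly6c1* rose and *Itm2a* fell, and *Slco1a4* was lower in repopulated than in aged control mice. Their part in the C1q values was not tested.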

How the data were processed

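The 9 hemibrain RNA-seq libraries were grouped by the labels, with 3 mice in each of the 3 groups. The authors called bases with CASAVA 1.8.2 (per the submitters' processing notes), mapped the reads with ELAND (mm10), derived RPKM values, kept 6145 genes above their minimum and fitted a generalized linear model. They deposited RPKM for the 689 genes that model called. The table also holds the authors' F and t scores and p-values, which were not used. How reads were counted, and how those shared by several genes were treated, is not given in the sources used here. All library columns were mapped to a sample (0 left over). Depth is unknown: a search of 424 genes for the steps that whole reads leave gave a best mean cosine of 0.127 to 0.175, where perfect steps give 1, so no counting error is given. No pair of libraries held identical values. Nothing in the labels says that libraries share a litter or preparation day.

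The values deposited were transformed to log2(RPKM + 1) and tested in limma 3.58.1 (R 4.3.3), 1 fit holding the 9 libraries, with a threshold of 0.05 on adjusted p. Ratios within a library were tested with exact permutations. Python 3.11.15, pandas 2.3.3 and matplotlib 3.10.9 were used. The code was tested on simulated data. Gene models came from GENCODE M21 (686 of 689 symbols matched, 19 through another symbol). Promoters came from RefSeq, where 2 of the 3 subunits had an entry.

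The members, gene lists, tests and alternatives were chosen with earlier results of these data known. Named genes were the subunits, the complement and microglial list members in the table, the 8 genes nearest to C1q in profile, and at most 3 of each other marker list. *Apod* was named after its value was seen. The values of 1 microglial gene are not reported here. Alternatives were a pseudocount of 0.1 or 10, untransformed RPKM, median centring, quantile normalization, loess corrections for transcript length or GC content, a minimum mean of 20 RPKM, only the groups compared, no variance moderation, a threshold of 0.025, adjustment over 6145 genes, and leaving out each library.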

Additional observations from a re-analysis of the deposited data

How the results depend on the processing

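The rises of *C1qa*, *C1qb* and *C1qc* with age kept their direction in every alternative run and passed the test in all of them but 1, with differences of 0.83 to 0.996, 0.71 to 0.86 and 0.69 to 0.81 as each library was left out. Adjustment over the number of genes the study tested, rather than those in the table, ended these calls (0.90, 0.81 and 0.76, adjusted p = 0.063, 0.063 and 0.059 by limma), since it counts more tests. For aged repopulated minus young control it ended the calls too (0.87, 0.74 and 0.69, adjusted p = 0.161, 0.189 and 0.161). So did no variance moderation (adjusted p = 0.093, 0.0995 and 0.093) and untransformed RPKM (17.2, 14.3 and 11.8 RPKM, adjusted p = 0.104, 0.104 and 0.098). As libraries were left out these differences ran from 0.64 to 1.03, 0.55 to 0.87 and 0.51 to 0.79. For aged repopulated minus aged control they ran from -0.26 to 0.12, -0.25 to 0.064 and -0.25 to 0.025, and none was called. The sign of that difference turned for *C1qa* with untransformed values (0.086 RPKM), median centring (0.024), quantile normalization (0.017), length correction (0.053) and GC correction (0.031), and with length correction for *C1qb* (0.015) and *C1qc* (0.011). Between the pooled aged and the young libraries, the uncalled ratio of *C1qa* to *Ctss* turned to -0.041 with a pseudocount of 10. It turned to -0.0088 with length and -0.078 with GC correction, and ranged from -0.0047 to 0.053 as libraries were left out. With a pseudocount of 10 the ratios of *C1qb* and *C1qc* to *Tyrobp* turned to 0.058 and 0.0047. The ratio of *C1qb* to *C1qc* ranged from -0.065 to 0.13 and that of *C1qa* to *Tyrobp* from -0.016 to 0.083 as libraries were left out. For the ratios to *Laptm5*, length correction ended the calls of *C1qb* (0.27) and *C1qc* (0.23) and a pseudocount of 0.1 that of *C1qb* (0.36), and GC correction brought the ratio of *C1qc* to *Ctss* past the threshold (-0.24). The RPKM minimum removed *Tyrobp*, *Laptm5* and the uncalled *Csf1r*, whose group means all lay below 20 RPKM. The microglial genes called therefore went from 5 to 3, both with age and in repopulated against young mice. With that minimum the whole table's calls, in either direction, went from 433 to 251 with age and from 34 to 22 in repopulated against young mice. The microglial genes called in repopulated against young mice fell to 0 with untransformed RPKM or no variance moderation. Calls over the whole table in that comparison fell too, from 34 to 6 with untransformed RPKM and to 9 with no variance moderation. Apart from the removal of genes by the RPKM minimum, the cause of these turns was not tested. Without read counts, the counting error behind each level is unknown. No paired analysis was possible because the labels give libraries no numbers shared between groups.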
